A study of Mus musculus with 17 samples.

Results

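The arrays held 110 probe sets, of 12488 in all, for 77 mouse genes of the ubiquitin system, where 8252 genes had a probe set with a single symbol. These are genes of E2 conjugating enzymes, F-box proteins, TRIM proteins, the ligase Mkrn1 and ubiquitin-specific proteases. They were taken by symbol, under a rule that uses no measured value but was set with earlier results of these data known. The probe set had to carry a single platform symbol, and that symbol had to begin with Ube2, Fbxo, Fbxw or Fbxl, to begin with Usp or Trim and a digit, or to be Mkrn1. Fbxo15 and Usp17la were set aside. There were 29 probe sets of E2 genes, 23 of F-box genes, 17 of Trim genes, 3 of Mkrn1 and 38 of Usp genes. Oocytes were sampled 4 times, the 1-cell and the 2-cell stage 3 times each, the 8-cell stage 4 times and blastocysts 3 times, each sample on a separate Affymetrix MG-U74Av2 array, and every sample was total RNA that had passed through 2 rounds of in vitro transcription. The labels give no strain, genotype, treatment or time, nor the maturation state of the oocytes. Nor do they state whether replicate samples stem from different animals or pools. The p-values thus reflect how far these samples spread, and that spread may be technical.

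Ubiquitin is a small protein that cells attach to other proteins through an activating enzyme (E1), a conjugating enzyme (E2) and a ligase (E3), which picks the substrate. F-box proteins are the exchangeable substrate adaptors of the SCF ligases, TRIM proteins and Mkrn1 are ligases built around a RING domain, and ubiquitin-specific proteases (Usp) take ubiquitin off again. In the early embryo the ubiquitin and proteasome system is known for removing proteins that the oocyte stored, while the embryo's own genome becomes active, in the mouse mainly at the 2-cell stage. All values below are transcript signals, and they say nothing of protein amounts or of ubiquitin itself.

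Of the 110 probe sets, 88, for 68 genes, had a signal above 41.1 on at least 3 arrays and were tested among 8067 probe sets in all. Changes are differences of mean log2(signal + 11) ± SE, the first stage named minus the second, with p-values from limma adjusted over all 8067 tested probe sets and called below 0.05. A fold in which a stage lies below 41.1 depends on the offset of 11 and is not exact, and levels are compared within a probe set alone, since probe sets hybridise with different strength. In these samples of whole oocytes and embryos, fewer cells of a type and less RNA per cell cannot be told apart.

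The stage labels were checked with marker genes, with no list for the 1-cell stage. The 5 probe sets of the 2-cell list summed to between 2782.7 and 5101.8 on the 2-cell arrays, against 1855.7 to 2192.2 on the 8-cell arrays. Those of Eif1a averaged 443.2 and 41.87 in 2-cell embryos, against 1539.6 and 350.6 in 8-cell embryos. The list for 8-cell embryos and later summed to between 4408.4 and 6087.2 on the 8-cell arrays, against 2319.6 to 2684.4 on the 2-cell arrays. In it Cdh1 averaged 154 in 8-cell embryos and 165.5 in oocytes. The 9 oocyte marker probe sets (Zp1, Zp2, Zp3, Gdf9, Bmp15, Mos and H1f8) summed to between 244.1 and 380.9 on the blastocyst arrays, against 34450.4 to 36167.9 on the oocyte arrays. On the 1-cell arrays they summed to between 23660.9 and 29537.1, and Gdf9, Bmp15 and H1f8 averaged higher there than in oocytes. The 11 blastocyst marker probe sets, of which 8 passed the filter, summed to between 8729.0 and 9786.7 on the blastocyst arrays, against 780.2 to 921.6 on the oocyte arrays. Of them Cdx2 averaged 8.07 on the blastocyst arrays and did not pass. The largest blastocyst means of the list were 3655.2 for Krt8 and 3278.8 for a Krt18 probe set. The tested Gata6 probe sets averaged higher in 8-cell embryos (431.2 and 110.6) than in blastocysts (223 and 65.8). Of the cumulus and granulosa cell, blood cell and sperm markers 2 of 6, 3 of 8 and 3 of 7 probe sets passed, and on no array did these lists sum to more than 285.1, 289.1 and 393.3. Arrays of a stage correlated at 0.935 to 0.979 across probe sets, against 0.742 to 0.891 for the best match of an array in another stage. The bacterial hybridisation spikes stood higher on 1-cell than on oocyte arrays, by 1.12 on the log2 scale, and lower on blastocyst than on 8-cell arrays, by 1.18. The 18S ribosomal RNA controls stood 4.90 higher on 1-cell than on oocyte arrays. With every array scaled on the spikes, the median change of all tested probe sets was -0.87 for 1-cell minus oocyte, 0.23 for 2-cell minus 1-cell, -0.58 for 8-cell minus 2-cell, 0.89 for blastocyst minus 8-cell and -0.39 for blastocyst minus oocyte, where it lay between -0.09 and 0.06 as deposited. Rises and falls are therefore relative to an array's mean signal, and the values with spike scaling are given where they turn a direction.

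More transcripts of the ubiquitin system were lower than higher in blastocysts against oocytes, at 52 and 18 of the 88 members (backgrounds 32.1% and 32.2%). By limma's moderated F test 80 of the 88 members (90.9%) differed between the 5 stages, a share near the background of 84.7% of all tested probe sets. Stage means were highest in oocytes for 15 members, in 1-cell embryos for 35, in 2-cell embryos for 16, in 8-cell embryos for 14 and in blastocysts for 8. The 35 highest in 1-cell embryos were 39.8% of the members, where 24.2% of all tested probe sets had their highest mean there, on the deposited scale. The lowest mean lay in blastocysts for 34 members (38.6%, against 27.9% of all tested probe sets) and in 8-cell embryos for 24 (27.3%, against 18.6%).

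**Figure D1:**
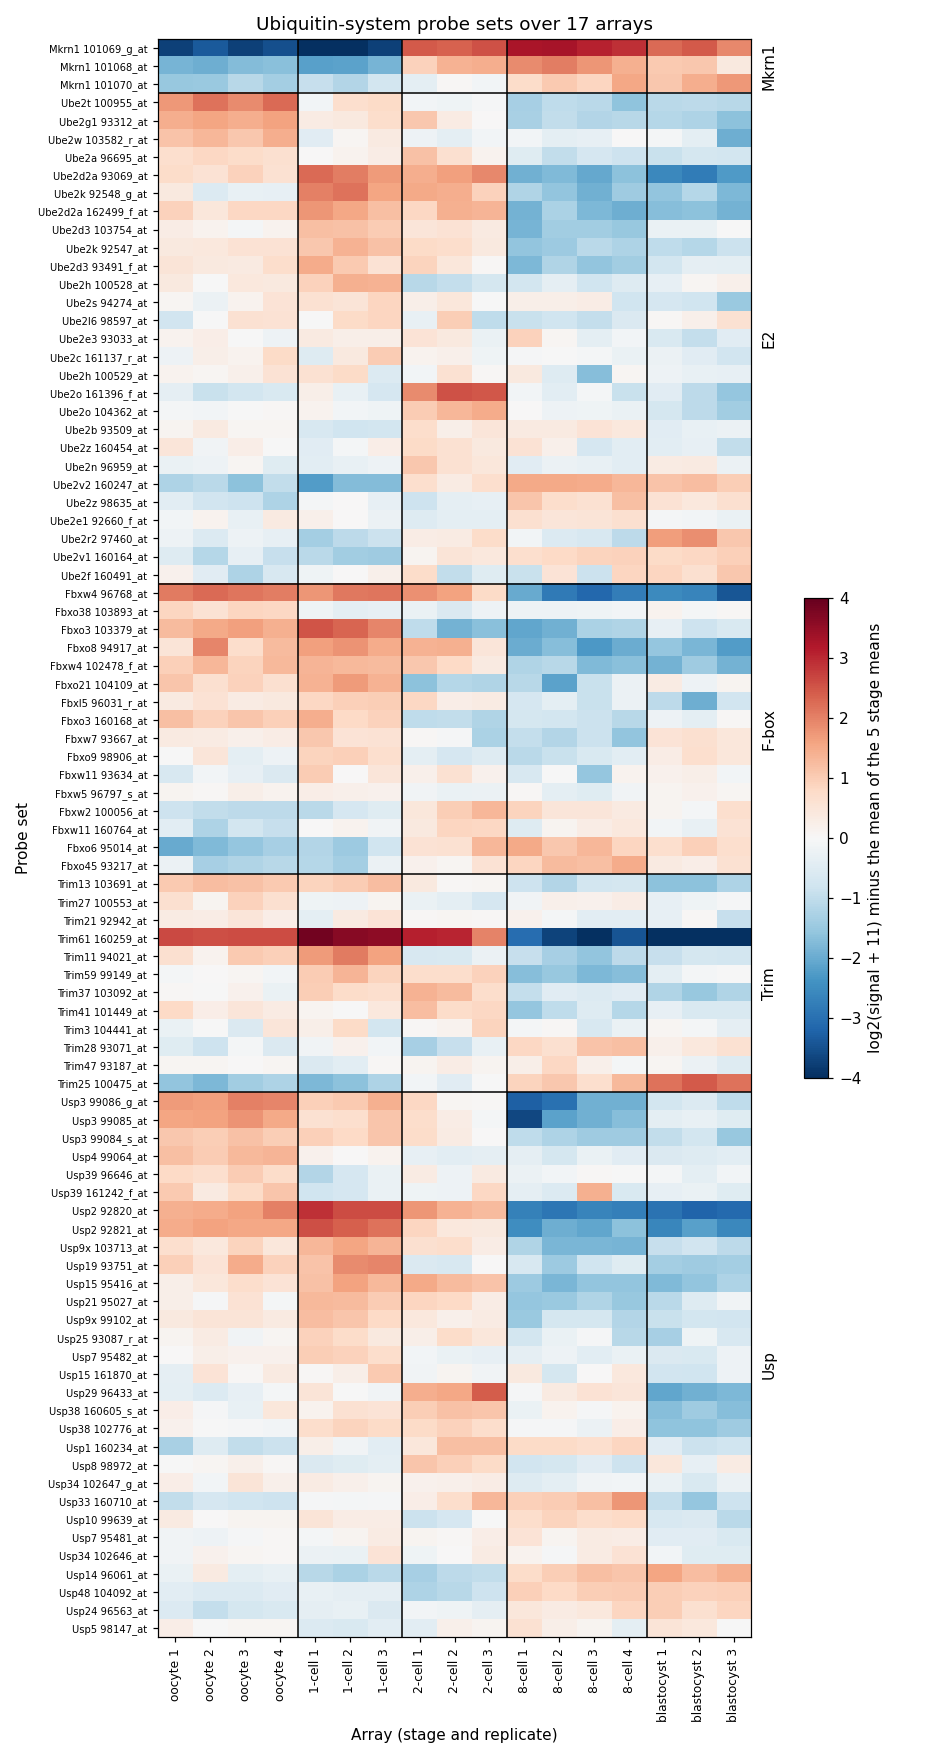
Heat map of the 88 tested probe sets (rows, grouped by class, then by the stage with the highest mean) on the 17 arrays (columns, ordered by stage). Colour is log2(signal + 11) minus the mean of the 5 stage means, with red higher and blue lower, and saturates at 4 in either direction. Blocks of red lie mostly over the oocyte, 1-cell and 2-cell arrays, and 35 rows are highest in 1-cell embryos.

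Between 1-cell embryos and oocytes, 26 members were higher (29.5%, background 17.3%) and 18 were lower (20.5%, background 19.8%), with a median change of 0.23 (0.04 over all tested). The count of lower members was 11 without 1-cell array 1. With spike scaling 1 of the 26 was still called higher and 20 of them had a negative change, while all 18 lower calls held there. As that scaling called 56.5% of all tested probe sets lower and 0.384% higher, the lower calls could hardly be lost. Between 2-cell and 1-cell embryos, 23 members were higher (26.1%, background 26.0%) and 28 were lower (31.8%, background 21.2%), with a median of -0.23 (0.06 over all tested). Median centring gave 17 higher and 38 lower members, and 1614 higher and 2435 lower probe sets in all, where the deposited scale gave 2096 and 1714. The share of members higher in 2-cell embryos was thus that of the arrays as a whole.

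In 8-cell against 2-cell embryos 13 members were higher (14.8%, background 25.8%) and 42 were lower (47.7%, background 28.3%), with a median of -0.56 (-0.06 over all tested), and 35 of the 42 fell at least 2-fold. Median centring gave 15 higher and 37 lower members here. Of the 26 members higher in 1-cell embryos than in oocytes, 18 were among these 42, in comparisons that share no arrays. That is 69.2% of the 26 and 42.9% of the 42, where over all tested probe sets 703 did both, or 50.3% of those higher and 30.8% of those lower. All 42 were also called lower with spike scaling, and 4 of the 13 higher ones were called higher there. Of all tested probe sets that scaling called 40.1% lower and 10.6% higher, so it favours lower calls. In blastocysts against 8-cell embryos 18 members were higher (20.5%, background 21.8%) and 23 were lower (26.1%, background 20.7%), with a median of -0.10 (-0.09 over all tested). With spike scaling the 18 stayed higher, 3 of the 23 stayed lower, and 16 of the 23 had a positive change. Of all tested probe sets it called 57% higher and 2.48% lower here, so it favours higher calls. Over the whole course, blastocysts against oocytes, 18 members were higher (20.5%, background 32.2%) and 52 lower (59.1%, background 32.1%), with a median of -0.74 (-0.07 over all tested). The spike scaling kept all 52 lower and 15 of the 18 higher calls, where it called 37% of all tested probe sets lower and 23.2% higher.

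The stages compared did not overlap in the arrays of 46 members for 1-cell embryos and oocytes (background 46.0% of tested probe sets), 58 for 2-cell and 1-cell embryos (53.9%), 54 for 8-cell and 2-cell embryos (51.7%), 43 for blastocysts and 8-cell embryos (43.4%) and 70 for blastocysts and oocytes (66.4%). Of the 88 members these were 52.3%, 65.9%, 61.4%, 48.9% and 79.5%.

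**Figure D2:**
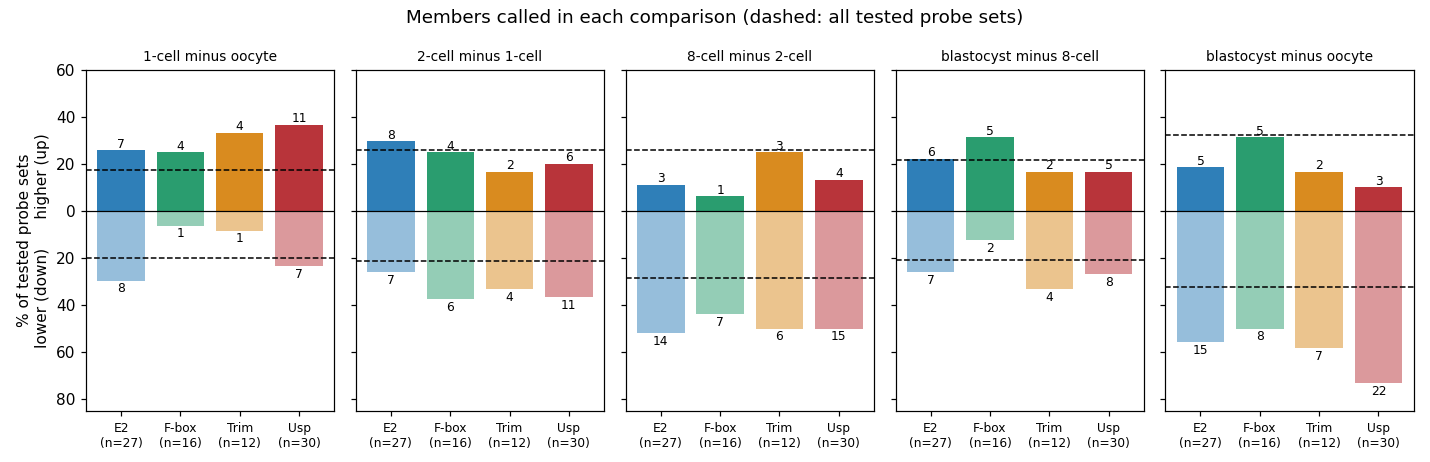
Share of the tested probe sets of each class called higher (bars up) or lower (bars down, paler) in each comparison, in percent, with the number of probe sets at the bar's end and dashed lines at the share of all 8067 tested probe sets. In 8-cell minus 2-cell the lower bars of all 4 classes, between 43.8% and 51.9%, pass the dashed line at 28.3%. In blastocyst minus oocyte the Usp class has 22 of 30 lower. With spike scaling most bars up in 1-cell minus oocyte and most bars down in blastocyst minus 8-cell are not called.

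The 3 genes with the widest range between stage means were Trim61, Mkrn1 and Usp2, so their promoters are shown, from 250 bases before to 50 bases after the transcription start as RefSeq gives it on mouse build GRCm38.p6, each 5′ to 3′ on the gene's strand. Capitals mark matches, on either strand, to any of 4 motifs: the TATA box, spelled TATAAA, the CCAAT box, spelled CCAAT, the GC box, spelled GGGCGG, and the E-box, spelled CACGTG.
Mkrn1, first start, chr6:39419727-39420026, minus strand: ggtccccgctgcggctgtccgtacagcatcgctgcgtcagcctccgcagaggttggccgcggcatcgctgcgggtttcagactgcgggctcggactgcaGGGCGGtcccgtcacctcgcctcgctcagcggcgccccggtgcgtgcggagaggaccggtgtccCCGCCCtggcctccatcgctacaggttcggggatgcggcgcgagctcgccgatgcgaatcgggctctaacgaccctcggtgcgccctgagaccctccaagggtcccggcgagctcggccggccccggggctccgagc
Mkrn1, second start, chr6:39420320-39420619, minus strand: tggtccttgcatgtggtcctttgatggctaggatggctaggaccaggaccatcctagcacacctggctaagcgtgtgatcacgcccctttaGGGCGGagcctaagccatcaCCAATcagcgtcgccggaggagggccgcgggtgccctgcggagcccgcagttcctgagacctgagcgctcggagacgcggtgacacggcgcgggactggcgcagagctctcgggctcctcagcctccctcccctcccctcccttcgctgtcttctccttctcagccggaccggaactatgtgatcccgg
Trim61, chr8:65018639-65018938, minus strand: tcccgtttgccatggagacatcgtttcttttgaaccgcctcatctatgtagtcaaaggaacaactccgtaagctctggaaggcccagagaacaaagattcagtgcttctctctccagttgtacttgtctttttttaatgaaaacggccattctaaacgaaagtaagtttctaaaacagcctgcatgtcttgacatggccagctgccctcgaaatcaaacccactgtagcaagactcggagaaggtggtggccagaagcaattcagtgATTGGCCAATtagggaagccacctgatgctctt
Usp2, chr9:44084670-44084969, plus strand: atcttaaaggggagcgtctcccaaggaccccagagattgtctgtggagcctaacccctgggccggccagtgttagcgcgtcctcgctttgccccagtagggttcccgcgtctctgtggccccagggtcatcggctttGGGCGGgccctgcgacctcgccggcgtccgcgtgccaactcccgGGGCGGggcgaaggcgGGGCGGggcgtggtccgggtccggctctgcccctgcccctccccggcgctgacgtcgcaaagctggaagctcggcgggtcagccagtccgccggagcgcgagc
Mkrn1 had 2 GC boxes in its first window, and a GC box and a CCAAT box in its second, and the windows held 41 and 23 CpG dinucleotides. The Usp2 window held 3 GC boxes and 33 CpG. That of Trim61 held 8 CpG and no GC box, and 2 CCAAT matches that lie side by side on opposite strands and share no base. Promoters matched for 56 of the 77 genes, in 75 windows, of which 69.3% held a GC box, 24% a CCAAT box, 9.33% a TATA box and 5.33% an E-box. Over all 32851 promoters of the table these shares were 35.7%, 37.4%, 13.6% and 7.15%, and the median CpG count was 7, against 23 in the 75 windows. A match describes the letters of a window and shows no bound factor.

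The E2 enzymes, which receive ubiquitin from E1, had 27 of 29 probe sets tested, for 21 genes. Between 1-cell embryos and oocytes 7 were higher and 8 lower (median 0.06), between 2-cell and 1-cell embryos 8 were higher and 7 lower (-0.23), between 8-cell and 2-cell embryos 3 were higher and 14 lower (-0.70), and between blastocysts and 8-cell embryos 6 were higher and 7 lower (-0.04). In blastocysts against oocytes 5 were higher and 15 lower (-0.70). In the same order these were 25.9% and 29.6%, 29.6% and 25.9%, 11.1% and 51.9%, 22.2% and 25.9%, and 18.5% and 55.6% of the class. Over all tested probe sets the shares were 17.3% and 19.8%, 26.0% and 21.2%, 25.8% and 28.3%, 21.8% and 20.7%, and 32.2% and 32.1%. With spike scaling 1 of the 7 rises in 1-cell embryos was called, that of Ube2k at 92548_g_at.

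Ube2d2a, which serves many ligases, had signals of 1092.4, 978.5, 1245.0 and 996.7 in oocytes, 3215.1, 2734.0 and 2159.1 in 1-cell, 1797.4, 2072.6 and 2483.4 in 2-cell, 163.5, 185.5, 151.4 and 202.9 in 8-cell embryos and 100.7, 84.7 and 125.8 in blastocysts (93069_at). All arrays up to the 2-cell stage stood above all later ones. The fall in 8-cell against 2-cell embryos was -3.51 ± 0.17 (adjusted p = 3.78e-13), and the second probe set, 162499_f_at, gave -2.94 ± 0.20. In 1-cell embryos against oocytes the first probe set was higher by 1.30 ± 0.17 (adjusted p = 3.28e-06), and by 0.20 with spike scaling (adjusted p = 0.590). Ube2k, which builds ubiquitin chains of the kind read by the proteasome, had 706.4, 369.3, 433.0 and 430.8 in oocytes, 2216.8, 2490.6 and 1645.1 in 1-cell, 1562.5, 1486.0 and 1026.7 in 2-cell, 228.3, 172.0, 135.8 and 194.3 in 8-cell embryos and 175.0, 237.8 and 149.1 in blastocysts (92548_g_at). Its 1-cell arrays lay above every oocyte array. The rise in 1-cell embryos was 2.12 ± 0.23 (adjusted p = 1.99e-07), and 1.03 with spike scaling (adjusted p = 0.00908), while the plain probe set 92547_at gave 0.72 ± 0.16 and -0.38.

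Ube2d3, a close relative of Ube2d2a, had 527.5, 467.2, 406.3 and 468.2 in oocytes, 1004.7, 967.4 and 865.9 in 1-cell, 605.5, 635.8 and 550.5 in 2-cell, 108.4, 156.8, 155.2 and 141.6 in 8-cell embryos and 351.2, 355.2 and 422.0 in blastocysts (103754_at). It was higher again in blastocysts, where no array overlapped with the 8-cell arrays. It fell by 2.02 ± 0.15 in 8-cell against 2-cell embryos (adjusted p = 3.64e-10) and rose by 1.36 ± 0.15 in blastocysts against 8-cell embryos (adjusted p = 3.62e-07). Its other probe set, 93491_f_at, changed by -1.95 ± 0.21 and 0.99 ± 0.21 in these comparisons.

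Several E2 transcripts were highest in oocytes. Ube2t, the E2 of the Fanconi anaemia pathway of DNA crosslink repair, had 1543.1, 2063.9, 1694.3 and 2228.0 in oocytes, 418.3, 722.2 and 771.4 in 1-cell, 417.2, 401.3 and 435.4 in 2-cell, 174.4, 216.2, 208.3 and 141.0 in 8-cell embryos and 210.9, 211.8 and 204.7 in blastocysts. Each oocyte array stood above every embryo array. It fell by 1.58 ± 0.20 in 1-cell embryos against oocytes (adjusted p = 1.37e-06) and by 1.15 ± 0.20 in 8-cell against 2-cell embryos (adjusted p = 3.54e-05). Ube2g1, which extends ubiquitin chains, had 3736.8, 4072.3, 3727.0 and 4175.9 in oocytes, 1712.7, 1787.5 and 2209.6 in 1-cell, 2840.5, 1701.2 and 1356.7 in 2-cell, 538.7, 669.1, 592.4 and 622.9 in 8-cell embryos and 606.0, 562.1 and 425.9 in blastocysts. Its 2-cell arrays spread widely and overlapped with the 1-cell arrays. The changes were -1.05 ± 0.19 in 1-cell embryos against oocytes (adjusted p = 0.00017) and -1.61 ± 0.19 in 8-cell against 2-cell embryos (adjusted p = 3.25e-07). Ube2w, which places ubiquitin on the amino end of proteins, averaged 59.2 ± 18.8 in 1-cell embryos (SD, n = 3) and 154 ± 20.1 in oocytes (SD, n = 4), a change of -1.26 ± 0.32 (adjusted p = 0.00337). Its probe set, 103582_r_at, carries a name mark.

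Other E2 transcripts rose at the 2-cell stage. Ube2o, a large enzyme that is both E2 and ligase, had 297.6, 202.8, 226.8 and 247.3 in oocytes, 455.4, 315.0 and 240.7 in 1-cell, 1453.6, 2293.0 and 2221.0 in 2-cell, 360.4, 286.6, 368.6 and 204.0 in 8-cell embryos and 277.3, 180.2 and 123.9 in blastocysts (161396_f_at). The 2-cell arrays stood alone above all others. It rose by 2.54 ± 0.28 in 2-cell against 1-cell embryos (adjusted p = 1.01e-07) and fell by 2.67 ± 0.26 in 8-cell against 2-cell embryos (adjusted p = 1.48e-08), and the plain probe set 104362_at gave 1.33 ± 0.19 and -1.43 ± 0.18. Ube2v2 and Ube2v1 are E2 variants with no active site of their own, which work with Ube2n to build chains used in signalling and DNA repair. Ube2v2 had 49.9, 57.5, 34.6 and 62.2 in oocytes, 19.5, 32.3 and 31.9 in 1-cell, 218.2, 170.0 and 215.9 in 2-cell, 397.1, 395.2, 394.2 and 350.6 in 8-cell embryos and 302.6, 328.5 and 272.9 in blastocysts. Every array from the 2-cell stage on stood above every earlier one, and the rise in 2-cell against 1-cell embryos was 2.46 ± 0.21 (adjusted p = 1.88e-09). Ube2v1 averaged 143 ± 22.1 in 2-cell and 38.3 ± 6.42 in 1-cell embryos (SD, n = 3 each), a change of 1.64 ± 0.22 (adjusted p = 1.51e-06). Their partner Ube2n, one of the narrower patterns of the class, had 436.2, 454.3, 547.7 and 369.8 in oocytes, 387.1, 424.8 and 451.7 in 1-cell, 1104.9, 805.5 and 725.6 in 2-cell, 379.5, 445.3, 424.3 and 384.7 in 8-cell embryos and 650.6, 678.5 and 437.3 in blastocysts. Its 2-cell arrays were the highest, with a change of 1.02 ± 0.19 against 1-cell embryos (adjusted p = 0.000126) and a change of -1.06 ± 0.18 in 8-cell against 2-cell embryos (adjusted p = 3.11e-05).

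Ube2r2, a relative of Cdc34 that works with SCF ligases, had 102.3, 78.2, 101.0 and 91.7 in oocytes, 39.5, 51.9 and 61.0 in 1-cell, 148.1, 153.2 and 205.0 in 2-cell, 108.3, 78.6, 73.0 and 52.3 in 8-cell embryos and 405.7, 458.5 and 262.2 in blastocysts. It rose, fell and rose again from the 1-cell stage on, and the blastocyst arrays stood above all others. The changes were 1.54 ± 0.25 in 2-cell against 1-cell embryos (adjusted p = 1.87e-05), -1.04 ± 0.23 in 8-cell against 2-cell embryos (adjusted p = 0.000624) and 2.12 ± 0.23 in blastocysts against 8-cell embryos (adjusted p = 2.29e-07). Ube2e1 had 830.8, 1006.6, 726.1 and 1154.4 in oocytes, 1031.6, 908.3 and 758.0 in 1-cell, 622.0, 691.4 and 691.1 in 2-cell, 1400.3, 1278.3, 1297.6 and 1424.9 in 8-cell embryos and 861.5, 834.4 and 749.9 in blastocysts (92660_f_at). Its 8-cell arrays stood above all others on the deposited scale, by 1.00 ± 0.16 against 2-cell embryos (adjusted p = 1.2e-05), where the spike scaling gave 0.37 (adjusted p = 0.295). The change of -0.72 ± 0.16 in blastocysts against 8-cell embryos (adjusted p = 0.000772) turned to 0.44 with spike scaling (adjusted p = 0.192). Ube2a and Ube2b are the mouse relatives of the yeast enzyme Rad6, which acts on histones and in DNA repair. Ube2b was lower in 1-cell embryos than in oocytes by 0.87 ± 0.15 (adjusted p = 7.74e-05) and higher in 2-cell than in 1-cell embryos by 1.19 ± 0.16 (adjusted p = 1.87e-06). Ube2a fell in 8-cell against 2-cell embryos by 1.40 ± 0.20 (adjusted p = 2.9e-06), where Ube2b changed by -0.06 ± 0.15 (adjusted p = 0.776). The E2 enzymes of the anaphase-promoting complex, a ligase of the cell cycle, were Ube2s and Ube2c. Ube2s averaged 121 ± 36.7 in blastocysts (SD, n = 3) and 273 ± 63.0 in oocytes (SD, n = 4), a change of -1.12 ± 0.25 (adjusted p = 0.000551). In the same comparison Ube2c (161137_r_at) was lower too, by 0.70 ± 0.28 (adjusted p = 0.0312), but it was called in no consecutive comparison.

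The F-box genes had 16 of 23 probe sets tested, for 13 genes. Between 1-cell embryos and oocytes 4 were higher and 1 lower (median 0.47), between 2-cell and 1-cell embryos 4 were higher and 6 lower (-0.49), between 8-cell and 2-cell embryos 1 was higher and 7 lower (-0.29), between blastocysts and 8-cell embryos 5 were higher and 2 lower (0.17), and between blastocysts and oocytes 5 were higher and 8 lower (-0.38). In 8-cell embryos 43.8% of the class was lower (background 28.3%), and in blastocysts against oocytes 31.2% was higher, near the background of 32.2%. The background was 17.3% for the higher class members in 1-cell embryos and 32.1% for the lower ones in blastocysts against oocytes. It was 19.8% for the lower ones in 1-cell embryos and 25.8% for the higher ones in 8-cell embryos. Between 2-cell and 1-cell embryos the backgrounds were 26.0% for higher and 21.2% for lower members. Between blastocysts and 8-cell embryos they were 21.8% and 20.7%. Stage means were highest in 1-cell embryos for 10 of the 16 and in blastocysts for 0, on the deposited scale. Of all tested probe sets 24.2% had their highest mean in 1-cell embryos and 21.0% in blastocysts.

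The F-box genes Fbxo3 and Fbxo21 fell at the 2-cell stage. Fbxo3 had 502.8, 603.1, 656.6 and 555.7 in oocytes, 1212.3, 1063.4 and 807.9 in 1-cell, 94.4, 46.5 and 56.1 in 2-cell, 39.1, 44.7, 78.5 and 82.3 in 8-cell embryos and 159.4, 107.9 and 127.7 in blastocysts (103379_at). Oocyte and 1-cell arrays stood above all arrays of the later stages. The change in 2-cell against 1-cell embryos was -3.79 ± 0.26 (adjusted p = 7.35e-11), a 13.8-fold fall, and at 160168_at it was -2.13 ± 0.20. In blastocysts it was higher than in 8-cell embryos, by 1.02 ± 0.24 (adjusted p = 0.00168). Fbxo21 had 207.5, 150.0, 184.6 and 149.3 in oocytes, 256.0, 325.3 and 259.0 in 1-cell, 21.7, 35.8 and 33.7 in 2-cell, 36.5, 12.2, 44.2 and 76.4 in 8-cell embryos and 116.7, 78.7 and 100.4 in blastocysts. Its 2-cell arrays all lay below the filter of 41.1. It changed by -2.82 ± 0.32 in 2-cell against 1-cell embryos (adjusted p = 2.21e-07) and by 1.18 ± 0.30 in blastocysts against 8-cell embryos (adjusted p = 0.00345). Fbxo9 and Fbxw7 were also higher in blastocysts than in 8-cell embryos. Fbxo9 averaged 106 ± 11.9 in 2-cell and 289 ± 28.7 in 1-cell embryos (SD, n = 3 each; -1.36 ± 0.22, adjusted p = 2.71e-05), then had 194.3, 256.7 and 219.4 in blastocysts, against 68.6, 80.1, 98.2 and 114.0 in 8-cell embryos (1.22 ± 0.21, adjusted p = 6.33e-05). Fbxw7, the adaptor that targets cyclin E and Myc, had 47.6, 51.4 and 43.6 in blastocysts, against 9.7, 6.9, 11.4 and 2.6 in 8-cell embryos. These signals are dim, and the stages did not overlap (1.67 ± 0.29, adjusted p = 7.33e-05).

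Fbxw4 and Fbxo8 fell later, after the 2-cell stage. Fbxw4 had 1057.0, 1206.2, 1107.3 and 1036.9 in oocytes, 840.7, 1089.0 and 1099.2 in 1-cell, 881.5, 766.2 and 421.9 in 2-cell, 51.6, 24.6, 17.7 and 26.0 in 8-cell embryos and 32.1, 29.2 and 12.7 in blastocysts (96768_at). All arrays up to the 2-cell stage stood above all later ones, with 2-cell array 3 the lowest of them. The change in 8-cell against 2-cell embryos was -4.09 ± 0.26 (adjusted p = 2.46e-11), and at 102478_f_at it was -2.19 ± 0.21 (adjusted p = 1.38e-08). Fbxo8, an F-box protein that also carries a Sec7 domain, had 530.4, 1460.3, 606.4 and 909.0 in oocytes, 1177.1, 1322.0 and 1052.1 in 1-cell, 983.5, 1016.1 and 522.0 in 2-cell, 85.9, 106.4, 65.6 and 84.3 in 8-cell embryos and 120.1, 96.9 and 70.0 in blastocysts. The oocyte arrays spread more than those of any other stage for this gene. It changed by -3.10 ± 0.28 in 8-cell against 2-cell embryos (adjusted p = 6.2e-09). Fbxl5, the iron-sensing adaptor, averaged 31.4 ± 8.47 in 8-cell (SD, n = 4) and 74.6 ± 18.6 in 2-cell embryos (SD, n = 3), and fell by 1.02 ± 0.26 (adjusted p = 0.00218).

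Among F-box genes that rose, Fbxo6, which recognises the sugar chains of misfolded glycoproteins, had 44.4, 55.0, 64.7 and 77.8 in oocytes, 88.7, 69.9 and 116.5 in 1-cell, 323.8, 329.8 and 549.6 in 2-cell, 624.5, 454.6, 543.9 and 389.6 in 8-cell embryos and 342.6, 417.7 and 341.9 in blastocysts. Every array from the 2-cell stage on stood above every earlier one. The rise in 2-cell against 1-cell embryos was 1.99 ± 0.24 (adjusted p = 3.99e-07), and in blastocysts against oocytes 2.42 ± 0.22 (adjusted p = 3.62e-09). Fbxw2 averaged 301 ± 92.1 in 2-cell and 85.5 ± 19.2 in 1-cell embryos (SD, n = 3 each), a change of 1.67 ± 0.24 (adjusted p = 5.31e-06). Fbxo45 had 65.4, 24.8, 27.9 and 30.5 in oocytes, 30.1, 24.0 and 65.7 in 1-cell, 89.9, 84.8 and 124.2 in 2-cell, 152.0, 207.5, 195.1 and 238.6 in 8-cell embryos and 103.8, 97.2 and 127.2 in blastocysts. On the deposited scale it was highest in 8-cell embryos, where its change against 2-cell embryos was 0.92 ± 0.28 (adjusted p = 0.00836) and 0.32 with spike scaling (adjusted p = 0.472). The change of -0.79 ± 0.28 in blastocysts against 8-cell embryos (adjusted p = 0.0279) turned to 0.30 with spike scaling (adjusted p = 0.495). Fbxo38, the F-box transcript of the narrowest range among the bright ones, had 587.3, 471.7, 580.7 and 572.8 in oocytes, 281.1, 237.0 and 248.9 in 1-cell, 263.4, 206.0 and 270.2 in 2-cell, 271.0, 270.2, 281.7 and 289.6 in 8-cell embryos and 348.7, 297.5 and 328.6 in blastocysts. The oocyte arrays stood above all others, and the change in 1-cell embryos against oocytes was -1.08 ± 0.15 (adjusted p = 4.64e-06).

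The Trim genes had 12 of 17 probe sets tested, for 12 genes. Between 1-cell embryos and oocytes 4 were higher and 1 lower (median 0.07), between 2-cell and 1-cell embryos 2 were higher and 4 lower (-0.22), between 8-cell and 2-cell embryos 3 were higher and 6 lower (-0.67), between blastocysts and 8-cell embryos 2 were higher and 4 lower (-0.26), and between blastocysts and oocytes 2 were higher and 7 lower (-0.75). Of the class 58.3% was lower in blastocysts against oocytes (background 32.1%) and 16.7% higher (32.2%). In 1-cell embryos 33.3% was higher (17.3%) and 8.33% lower (19.8%), and in 2-cell embryos 16.7% (26.0%) and 33.3% (21.2%). In blastocysts against 8-cell embryos 16.7% was higher (21.8%) and 33.3% lower (20.7%). In 8-cell embryos the 6 of 12 lower stood against a background of 28.3%, and the 3 of 12 higher were near the background of 25.8%. Trim61, whose promoter is printed above, had the widest range of all members. Its signals were 5430.9, 5200.4, 5363.7 and 5378.4 in oocytes, 12634.5, 10890.8 and 10339.2 in 1-cell, 7588.9, 7157.9 and 3462.3 in 2-cell, 94.7, 55.6, 29.6 and 69.2 in 8-cell embryos and 13.5, 7.8 and 10.5 in blastocysts. All arrays up to the 2-cell stage stood far above all later ones, and the blastocyst arrays were near background. The change in 8-cell against 2-cell embryos was -6.37 ± 0.26 (adjusted p = 2.73e-14), and in blastocysts against 8-cell embryos -1.69 ± 0.26 (adjusted p = 1.91e-05), or -0.86 with spike scaling (adjusted p = 0.0273). In 1-cell embryos against oocytes it was higher by 1.07 ± 0.26 (adjusted p = 0.00223), a call that ended with quantile normalization, and spike scaling gave -0.04. The 2-cell against 1-cell change of -0.97 ± 0.28 (adjusted p = 0.006) was not called without 2-cell array 3, nor with quantile normalization.

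Trim25, a ligase of the antiviral RIG-I pathway, took the opposite course. It had 19.7, 15.3, 24.1 and 28.4 in oocytes, 15.7, 18.7 and 28.2 in 1-cell, 74.5, 55.8 and 80.2 in 2-cell, 161.2, 184.0, 136.5 and 213.0 in 8-cell embryos and 402.2, 493.8 and 401.2 in blastocysts. From the 1-cell stage on, each stage stood above the one before with no overlap. The rises were 1.36 ± 0.23 in 2-cell against 1-cell embryos (adjusted p = 4.12e-05), 1.18 ± 0.22 in 8-cell against 2-cell embryos (adjusted p = 8.01e-05) and 1.27 ± 0.22 in blastocysts against 8-cell embryos (adjusted p = 6e-05), of which the second was 0.58 with spike scaling (adjusted p = 0.135). Trim28, the corepressor that KRAB zinc finger proteins bring to retroelements and imprinted regions, had 777.0, 612.3, 1037.4 and 727.2 in oocytes, 997.9, 1235.8 and 1019.5 in 1-cell, 433.4, 572.5 and 878.7 in 2-cell, 1934.1, 1711.1, 2404.1 and 2555.1 in 8-cell embryos and 1258.6, 1471.3 and 1667.0 in blastocysts. The 8-cell arrays stood above all others on the deposited scale. Its rise against 2-cell embryos was 1.80 ± 0.21 (adjusted p = 2.78e-07), and 1.16 with spike scaling (adjusted p = 0.00296). The change of -0.54 ± 0.21 in blastocysts against 8-cell embryos (adjusted p = 0.0454) turned to 0.63 with spike scaling (adjusted p = 0.0958).

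Trim11 and Trim59 were highest in 1-cell embryos. Trim11 had 400.7, 283.1, 535.9 and 503.1 in oocytes, 862.6, 1102.0 and 801.0 in 1-cell, 160.8, 164.2 and 217.4 in 2-cell, 130.2, 94.8, 78.6 and 116.6 in 8-cell embryos and 130.5, 153.0 and 147.2 in blastocysts. It was higher in 1-cell embryos than in oocytes by 1.11 ± 0.21 (adjusted p = 0.000243; 0.01 with spike scaling) and fell by 2.28 ± 0.23 in 2-cell against 1-cell embryos (adjusted p = 2.31e-08). Trim59 kept its signal one stage longer. Its arrays read 286.7, 300.8, 319.7 and 275.2 in oocytes, 616.3, 797.3 and 571.6 in 1-cell, 495.4, 493.6 and 584.3 in 2-cell, 84.0, 97.7, 79.7 and 85.5 in 8-cell embryos and 227.3, 282.6 and 294.6 in blastocysts. The change was -2.45 ± 0.16 in 8-cell against 2-cell embryos (adjusted p = 2.14e-11) and 1.51 ± 0.16 in blastocysts against 8-cell embryos (adjusted p = 1.18e-07). Trim13, a ligase anchored in the endoplasmic reticulum, had 2001.9, 2295.4, 2201.7 and 1996.8 in oocytes, 1802.7, 1944.3 and 2296.4 in 1-cell, 1276.0, 998.1 and 1026.0 in 2-cell, 533.4, 421.4, 571.9 and 580.3 in 8-cell embryos and 300.6, 303.4 and 404.7 in blastocysts. Each stage after the 1-cell stage lay below the one before with no overlap. The changes were -0.87 ± 0.17, -1.05 ± 0.16 and -0.63 ± 0.16 in turn (adjusted p = 0.000169, 6.83e-06 and 0.00244). Spike scaling turned the last of them to a rise of 0.51 that was not called (adjusted p = 0.177). Trim37 and Trim41 both fell in 8-cell against 2-cell embryos. Trim37 had 226.7, 217.6, 248.9 and 182.7 in oocytes, 447.7, 376.5 and 354.3 in 1-cell, 592.5, 541.4 and 367.8 in 2-cell, 108.3, 159.2, 145.7 and 157.8 in 8-cell embryos and 89.7, 69.9 and 88.5 in blastocysts, and Trim41 had 187.2, 125.8, 148.6 and 131.7 in oocytes, 111.0, 100.7 and 139.1 in 1-cell, 255.7, 176.7 and 188.2 in 2-cell, 27.9, 44.3, 67.4 and 39.8 in 8-cell embryos and 78.8, 62.9 and 63.1 in blastocysts. In both genes all 8-cell arrays lay below all 2-cell arrays. Trim37 changed by -1.72 ± 0.19 (adjusted p = 9.45e-08) and Trim41 by -1.99 ± 0.23 (adjusted p = 1.65e-07). The narrowest bright Trim transcript was Trim27, with 1030.4, 705.6, 1261.7 and 1042.6 in oocytes, 586.3, 575.9 and 712.7 in 1-cell, 541.6, 495.9 and 412.7 in 2-cell, 591.3, 755.5, 737.1 and 802.6 in 8-cell embryos and 520.2, 579.6 and 643.2 in blastocysts. Its change in 8-cell against 2-cell embryos was 0.57 ± 0.18 (adjusted p = 0.0101), not called without 2-cell array 3 and -0.06 with spike scaling.

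Mkrn1, a zinc finger protein with a RING domain, was measured by 3 probe sets, and all of them were called higher in 2-cell than in 1-cell embryos and in blastocysts than in oocytes. The probe set 101069_g_at had 56.1, 74.8, 54.9 and 66.1 in oocytes, 19.3, 41.3 and 54.9 in 1-cell, 4797.6, 4555.4 and 5203.7 in 2-cell, 8459.5, 8737.0, 7448.0 and 6680.4 in 8-cell embryos and 4267.1, 4882.9 and 3357.2 in blastocysts. The signals before and after the 2-cell stage lie in separate ranges. The rise in 2-cell against 1-cell embryos was 6.69 ± 0.22 (adjusted p = 1.09e-15), about 103-fold, and 101068_at gave 3.31 ± 0.25 (adjusted p = 3.85e-10). The third probe set, 101070_at, had 76.1, 77.6, 105.2 and 85.2 in oocytes, 119.2, 98.4 and 137.9 in 1-cell, 179.7, 246.7 and 219.8 in 2-cell, 407.5, 508.4, 439.9 and 714.0 in 8-cell embryos and 516.2, 668.4 and 813.8 in blastocysts. It rose later and less steeply, by 0.81 ± 0.22 in 2-cell against 1-cell embryos (adjusted p = 0.0041, not called with median centring) and by 1.20 ± 0.20 in 8-cell against 2-cell embryos (adjusted p = 3.59e-05, and 0.58 with spike scaling). The first probe set changed by 0.68 ± 0.20 in 8-cell against 2-cell embryos (adjusted p = 0.00728), but by -0.20 with quantile normalization and 0.04 with spike scaling, and by -0.64 ± 0.20 in 1-cell embryos against oocytes (adjusted p = 0.0164), which was not called without 1-cell array 1. In blastocysts against 8-cell embryos 101069_g_at changed by -0.92 ± 0.20 (adjusted p = 0.000998) and 101068_at by -0.93 ± 0.23 (adjusted p = 0.00279), while 101070_at changed by 0.37 ± 0.20 (adjusted p = 0.158), and spike scaling turned the first of these changes to 0.26 and the second to 0.14. Against oocytes the blastocyst changes were 5.81 ± 0.20, 2.65 ± 0.23 and 2.79 ± 0.20. How the 3 probe sets divide the transcripts of Mkrn1, or of copies of it elsewhere in the genome, was not tested.

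**Figure D3:**
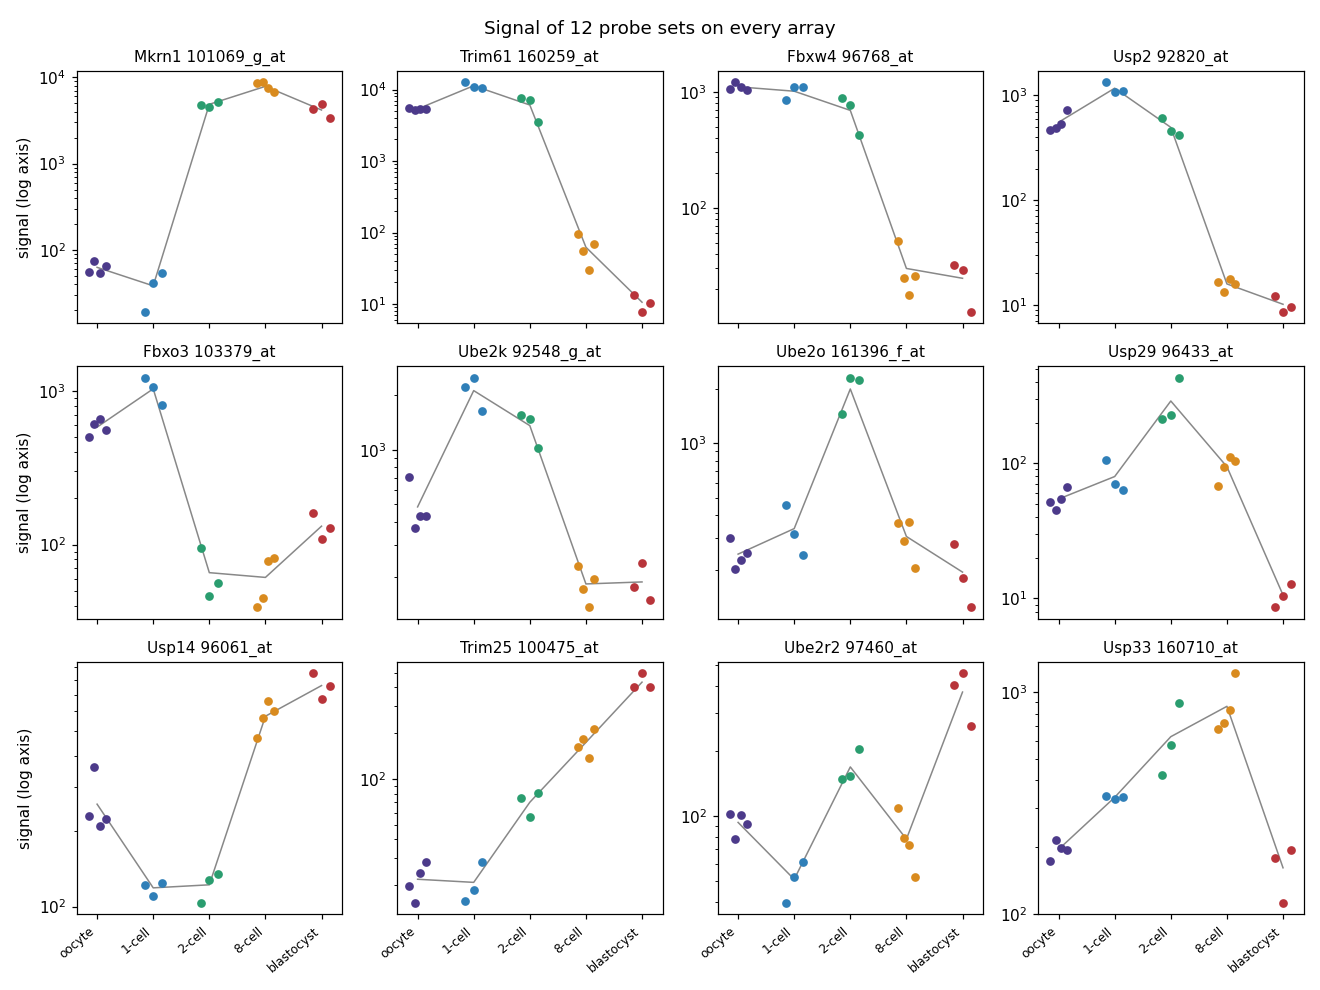
Signal (log axis) of 12 member probe sets on each array, by stage from oocyte to blastocyst, with points for arrays and a line through the stage means. Mkrn1 lies between 19.3 and 74.8 before the 2-cell stage and between 3357.2 and 8737.0 from it on, while Trim61 has 3462.3 or more up to the 2-cell stage and 94.7 or less afterwards. Trim25 rises and Fbxw4 falls with no overlap between 2-cell and 8-cell arrays.

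The Usp genes, which remove ubiquitin, had 30 of 38 probe sets tested, for 21 genes. Between 1-cell embryos and oocytes 11 were higher and 7 lower (median 0.29), between 2-cell and 1-cell embryos 6 were higher and 11 lower (-0.13), between 8-cell and 2-cell embryos 4 were higher and 15 lower (-0.48), between blastocysts and 8-cell embryos 5 were higher and 8 lower (-0.13), and between blastocysts and oocytes 3 were higher and 22 lower (-0.95). Of the class 36.7% was higher in 1-cell embryos (background 17.3%) and 23.3% lower, near the background of 19.8%. With spike scaling 1 of the 26 member rises in 1-cell embryos was called, that of Ube2k. Thus no rise of the F-box, Trim or Usp classes was called there. In 2-cell embryos 36.7% was lower (21.2%), in 8-cell embryos 15 of 30 (28.3%) and in blastocysts against oocytes 73.3% (32.1%). The 3 that were higher in blastocysts than in oocytes were Usp14, Usp24 and Usp48.

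Usp2, whose promoter is printed above, had 467.5, 491.6, 536.3 and 719.4 in oocytes, 1334.2, 1086.1 and 1091.8 in 1-cell, 605.0, 460.2 and 419.6 in 2-cell, 16.7, 13.4, 17.6 and 15.7 in 8-cell embryos and 12.2, 8.6 and 9.6 in blastocysts (92820_at). From the 8-cell stage on this probe set was below the filter on every array, while 92821_at averaged 64.3 in 8-cell embryos and 44.5 in blastocysts. At 92820_at it fell by 1.23 ± 0.20 in 2-cell against 1-cell embryos (adjusted p = 1.62e-05) and by 4.22 ± 0.18 in 8-cell against 2-cell embryos (adjusted p = 5.68e-14), and the probe set 92821_at changed by -1.83 ± 0.20 and -2.59 ± 0.19. In 1-cell embryos against oocytes the probe sets were higher by 1.08 ± 0.18 and 0.85 ± 0.19, with values of -0.02 and -0.26 under spike scaling. Usp15, which acts on Smad and other signalling proteins, had 1047.6, 1214.5, 1441.1 and 1305.1 in oocytes, 2003.5, 2768.5 and 2211.3 in 1-cell, 2586.2, 2150.6 and 1969.7 in 2-cell, 315.3, 240.9, 288.0 and 293.0 in 8-cell embryos and 253.8, 290.4 and 368.7 in blastocysts (95416_at). Its 2-cell and 1-cell arrays overlapped, and the later ones lay below all of them. The change in 8-cell against 2-cell embryos was -2.92 ± 0.17 (adjusted p = 3.7e-12). The second Usp15 probe set, 161870_at, was dim, at 54.3 ± 20.6 in 8-cell (SD, n = 4) and 47.4 ± 6.15 in 2-cell embryos (SD, n = 3), and was not called there (0.10 ± 0.30, adjusted p = 0.803).

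Usp9x, an X-linked protease with many substrates, had 570.0, 480.8, 659.4 and 491.5 in oocytes, 906.0, 1086.8 and 931.6 in 1-cell, 560.3, 587.7 and 433.6 in 2-cell, 146.1, 92.0, 91.5 and 89.8 in 8-cell embryos and 183.1, 201.7 and 166.3 in blastocysts (103713_at). It peaked in 1-cell embryos, on the deposited scale, and was lowest in 8-cell embryos. It fell by 2.23 ± 0.18 in 8-cell against 2-cell embryos (adjusted p = 8.71e-10) and rose by 0.77 ± 0.18 in blastocysts against 8-cell embryos (adjusted p = 0.00146). Usp3, which takes ubiquitin off histones, was highest in oocytes at all 3 probe sets. At 99085_at it had 1003.5, 1026.6, 1192.8 and 970.5 in oocytes, 515.9, 539.2 and 730.9 in 1-cell, 546.9, 414.8 and 313.0 in 2-cell, 16.4, 67.0, 79.7 and 95.2 in 8-cell embryos and 251.7, 271.3 and 235.3 in blastocysts. The 8-cell arrays lay below all others. The change was -2.66 ± 0.31 in 8-cell against 2-cell embryos (adjusted p = 2.23e-07) and 1.97 ± 0.31 in blastocysts against 8-cell embryos (adjusted p = 2.54e-05). The overlapping set 99086_g_at gave 1.76 ± 0.28 in blastocysts against 8-cell embryos, and 99084_s_at gave 0.20 ± 0.19 (adjusted p = 0.428). Usp19, a protease of the endoplasmic reticulum membrane, averaged 239 ± 67.4 in 2-cell and 1046 ± 299 in 1-cell embryos (SD, n = 3 each), a change of -2.07 ± 0.27 (adjusted p = 1.09e-06). On single arrays it had 620.6, 462.9, 888.0 and 599.2 in oocytes, 701.7, 1193.8 and 1241.4 in 1-cell, 205.4, 195.0 and 316.6 in 2-cell, 198.8, 108.1, 174.1 and 219.7 in 8-cell embryos and 115.3, 110.7 and 115.4 in blastocysts.

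The transcripts lower in 1-cell embryos than in oocytes included Usp39, Usp4 and Usp14. Spike scaling, which called 56.5% of all tested probe sets lower there, kept each of these calls. Usp39, which has lost the catalytic residues and belongs to the spliceosome, had 59.1, 88.7 and 119.7 in 1-cell embryos, against 260.4, 237.9, 309.8 and 252.4 in oocytes (96646_at). The stages did not overlap, and the change was -1.50 ± 0.21 (adjusted p = 5.23e-06). Usp4 had 554.6, 495.6 and 535.3 in 1-cell embryos, against 1128.2, 1005.7, 1204.6 and 1274.0 in oocytes. It was called at -1.11 ± 0.14 (adjusted p = 1.84e-06), and it read 320.1, 336.9 and 359.9 in blastocysts. Usp14, the deubiquitinase bound to the proteasome, had 230.4, 361.8, 208.8 and 223.7 in oocytes, 122.2, 109.8 and 124.4 in 1-cell, 103.5, 128.2 and 134.8 in 2-cell, 470.7, 562.8, 659.0 and 605.3 in 8-cell embryos and 851.4, 672.9 and 759.2 in blastocysts. It was low in 1-cell and 2-cell embryos alone. It changed by -1.01 ± 0.18 in 1-cell embryos against oocytes (adjusted p = 0.000145) and by 2.13 ± 0.18 in 8-cell against 2-cell embryos (adjusted p = 2.36e-09, and 1.5 with spike scaling).

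Usp48 and Usp10 were also higher in 8-cell than in 2-cell embryos. Usp48 had 608.8, 538.3, 615.4 and 636.0 in 8-cell embryos, against 125.0, 134.4 and 167.4 in 2-cell embryos. The arrays of each stage lay close together, and the change was 2.00 ± 0.14 (adjusted p = 9.14e-11; 1.37 with spike scaling, adjusted p = 0.000268). Usp10 had 707.7, 559.7, 599.4 and 599.0 in oocytes, 802.6, 682.2 and 681.2 in 1-cell, 301.8, 343.9 and 544.9 in 2-cell, 906.5, 1048.5, 902.9 and 963.8 in 8-cell embryos and 353.7, 367.9 and 254.5 in blastocysts. Its 8-cell arrays stood above all others. The change was 1.29 ± 0.18 in 8-cell against 2-cell embryos (adjusted p = 2.92e-06; 0.66 with spike scaling, adjusted p = 0.0689) and -1.54 ± 0.18 in blastocysts against 8-cell embryos (adjusted p = 6.06e-07; -0.39 with spike scaling, adjusted p = 0.271).

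Usp33, Usp29, Usp38 and Usp1 were lower in blastocysts than in 8-cell embryos. Usp33 had 173.7, 215.1, 199.0 and 193.7 in oocytes, 339.1, 329.4 and 337.4 in 1-cell, 420.8, 575.8 and 891.7 in 2-cell, 683.3, 726.3, 826.4 and 1214.7 in 8-cell embryos and 177.7, 112.1 and 194.2 in blastocysts. All blastocyst arrays lay below all 8-cell arrays, and 1 of them lay below every oocyte array. The change against 8-cell embryos was -2.34 ± 0.23 (adjusted p = 5.14e-08; -1.20 with spike scaling, adjusted p = 0.00223). Usp29, an imprinted gene of the Peg3 region, had 51.4, 45.2, 54.3 and 66.6 in oocytes, 105.6, 69.9 and 63.8 in 1-cell, 211.8, 225.8 and 428.6 in 2-cell, 68.1, 94.1, 111.8 and 103.2 in 8-cell embryos and 8.6, 10.4 and 12.8 in blastocysts. It was highest on the 2-cell arrays and near background in blastocysts. It rose by 1.68 ± 0.27 in 2-cell against 1-cell embryos (adjusted p = 1.64e-05) and fell by 1.46 ± 0.25 in 8-cell against 2-cell embryos (adjusted p = 3.57e-05) and by 2.27 ± 0.25 in blastocysts against 8-cell embryos (adjusted p = 2.44e-07; -1.41 with spike scaling). Usp38 changed by -1.52 ± 0.14 and -1.60 ± 0.20 at its 2 probe sets in blastocysts against 8-cell embryos, with values of -0.38 and -0.60 under spike scaling that were not called. Usp1, which reverses the ubiquitin mark that Ube2t helps to place, had 508.0, 880.0, 636.3 and 685.0 in oocytes, 1494.4, 1155.8 and 942.9 in 1-cell, 1736.7, 2894.3 and 2906.9 in 2-cell, 2166.6, 2135.0, 2037.6 and 2327.0 in 8-cell embryos and 925.7, 694.5 and 728.7 in blastocysts. Where Ube2t was highest in oocytes, Usp1 was highest in 2-cell and 8-cell embryos. It rose by 1.05 ± 0.22 in 2-cell against 1-cell embryos (adjusted p = 0.000347) and changed by -1.47 ± 0.20 in blastocysts against 8-cell embryos (adjusted p = 5.13e-06; -0.30 with spike scaling, adjusted p = 0.374).

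The bright Usp transcripts with the narrowest range were Usp34 and Usp7. At 102647_g_at Usp34 had 562.7, 425.7, 664.2 and 538.7 in oocytes, 583.2, 532.4 and 502.0 in 1-cell, 525.1, 532.0 and 573.3 in 2-cell, 319.3, 349.9, 416.5 and 427.0 in 8-cell embryos and 378.6, 297.7 and 389.7 in blastocysts. The 3 earlier stages overlapped, and 8-cell and blastocyst arrays overlapped at a lower level (-0.52 ± 0.16 in 8-cell against 2-cell embryos, adjusted p = 0.0101, not called with median centring). Usp7, known for acting on the ligase Mdm2, had 991.4, 1150.7, 1098.4 and 1110.0 in oocytes, 1974.7, 1875.9 and 1624.1 in 1-cell, 910.6, 819.1 and 775.1 in 2-cell, 762.1, 852.7, 724.8 and 809.8 in 8-cell embryos and 656.9, 642.0 and 853.5 in blastocysts (95482_at). Its 1-cell arrays stood above all others on the deposited scale, and the change in 2-cell against 1-cell embryos was -1.12 ± 0.15 (adjusted p = 1.77e-06). Usp8, which sorts receptors at endosomes, alternated. It averaged 427 ± 50.9 in 2-cell and 152 ± 11.3 in 1-cell embryos (SD, n = 3 each; 1.43 ± 0.19, adjusted p = 2.39e-06), then 131 ± 16.3 in 8-cell embryos (SD, n = 4; -1.63 ± 0.18 against 2-cell embryos, adjusted p = 1.18e-07) and 247 ± 69.3 in blastocysts (SD, n = 3; 0.83 ± 0.18 against 8-cell embryos, adjusted p = 0.00082).

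Where 18 genes had several tested probe sets, these gave the same verdict for 9 to 14 genes in each comparison and opposite calls for 1 gene, Ube2z, the E2 charged by the alternative activating enzyme Uba6. At 98635_at Ube2z had 386.5, 287.9, 264.6 and 410.7 in 8-cell embryos, against 91.6, 129.6 and 134.5 in 2-cell embryos. It was higher by 1.42 ± 0.21 (adjusted p = 5.02e-06). At 160454_at it had 130.7, 99.2, 49.0 and 60.7 in 8-cell embryos, against 150.2, 134.5 and 112.7 in 2-cell embryos. This set was lower by 0.66 ± 0.28 (adjusted p = 0.0499), a call that ended in 5 of 7 fits with an array left out. In blastocysts against oocytes the calls were opposite as well. There 98635_at changed by 1.36 ± 0.21 (adjusted p = 5.67e-06) and 160454_at by -0.72 ± 0.28 (adjusted p = 0.0273). Ube2h, an E2 of the CTLH ligase complex, was lower in 2-cell than in 1-cell embryos by 2.15 ± 0.23 at 100528_at (adjusted p = 5.49e-08), where 100529_at changed by -0.10 ± 0.39 (adjusted p = 0.870).

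**Figure D4:**
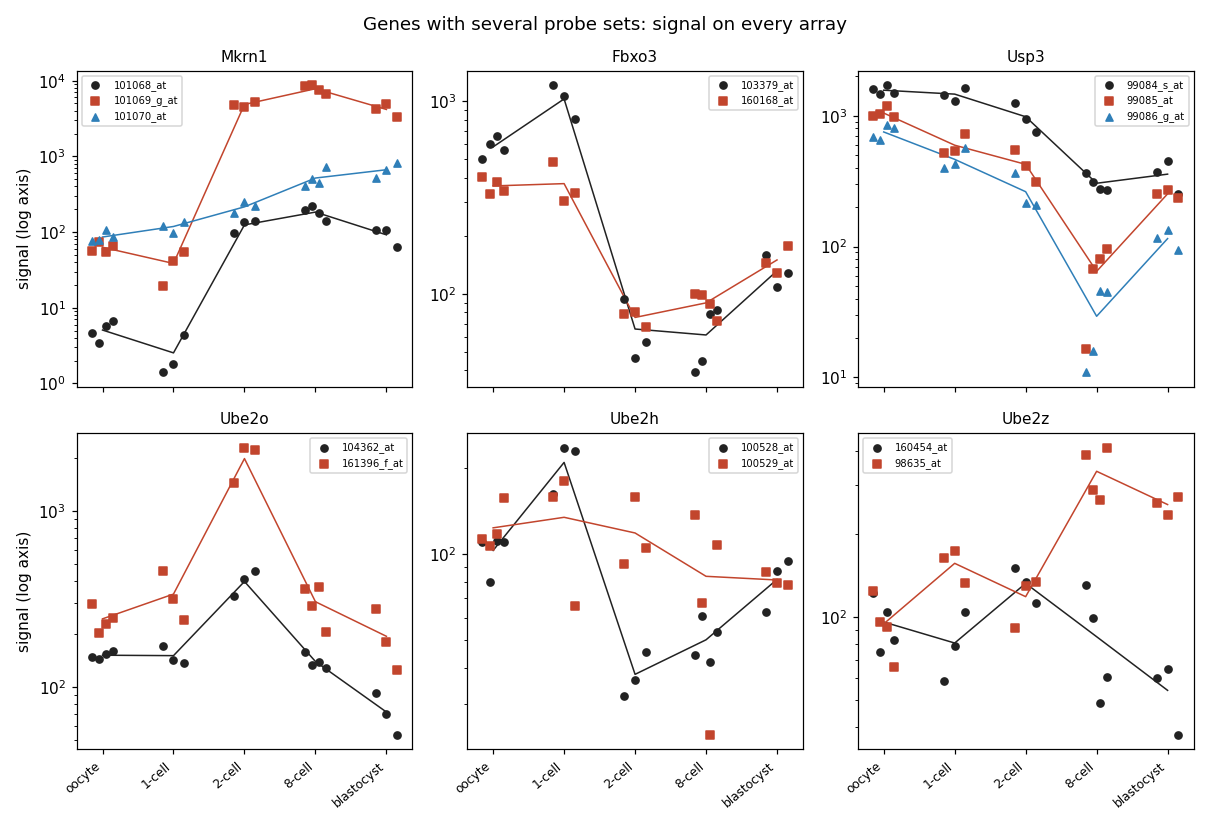
Signal (log axis) on each array of 6 genes with 2 or 3 tested probe sets, by stage from oocyte to blastocyst, with a colour and marker per probe set and lines through stage means. The Mkrn1 and Fbxo3 probe sets move the same way at the 2-cell stage with changes of different size. The Ube2h and Ube2z probe sets part.

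Of the 22 probe sets that did not pass the filter, 7 stood for F-box genes, 8 for Usp genes, 5 for Trim genes and 2 for E2 genes. For Fbxl12, Fbxl15, Trim30a, Trim46, Usp12, Usp17lc, Usp18, Usp22 and Usp42 no probe set was tested, and their stage means lay between 1.60 and 29.8. The other untested sets were further ones of genes with a tested set. Of the 88 tested members, 7 were called in no consecutive comparison.

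Further genes of the ubiquitin system, listed by function, were counted in the same comparisons, where of all tested probe sets 25.8% were higher and 28.3% lower in 8-cell against 2-cell embryos, and 32.2% and 32.1% in blastocysts against oocytes. In 8-cell against 2-cell embryos, 24 of 44 tested probe sets of other ligases were lower and 8 higher (median -0.54), while 11 of 25 of SCF and cullin partners were higher and 6 lower (0.32). Subunits and activators of the anaphase-promoting complex had 6 of 14 higher and 3 lower (0.10), and deubiquitinases of other families had 4 of 10 higher and 4 lower (-0.42). In blastocysts against oocytes the other ligases had 10 higher and 21 lower (-0.46), the SCF and cullin partners 5 and 9 (-0.29), the anaphase-promoting complex 5 and 6 (-0.21) and the other deubiquitinases 3 and 6 (-0.74). Of the 4 tested probe sets of ubiquitin and E1 genes, 1 was higher and 2 were lower in each of these comparisons.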

How the data were processed

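Oocytes and embryos of 5 stages were profiled on 17 arrays, 3 or 4 a stage, and this number limits the precision. The deposited signal intensity values were used, linear and scaled per array by the authors to a mean of the middle 96% of values between 150.097 and 150.133. The labels give 2 rounds of in vitro transcription; neither software nor scaling target is given in the sources used here.

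Stages are those of the sample titles. An offset of 11 (25th percentile) was added before log2, and probe sets above 41.1 (the median) on at least 3 arrays were tested, which left 8067, with 66 controls left out. One model over all 17 arrays was fitted with lmFit and eBayes with an intensity trend (R 4.3.3, limma 3.58.1; 12 residual degrees of freedom), two-sided, with Benjamini-Hochberg adjustment within each comparison and calls below 0.05. Spike scaling used 9 bacterial hybridisation probe sets. In simulated data with known changes for 1-cell minus oocyte over 8067 probe sets, 2 of 67 changes of 0.5, 38 of 67 of 1 and 65 of 66 of 2 (log2) were called, and 6 unchanged ones. Far fewer probe sets were changed there than the 1397 higher and 1597 lower ones called in the real comparison, and the noise was independent and normal. These shares therefore do not give the sensitivity of the real fit.

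The members and all gene lists were chosen with earlier results of these data known. Array values are given for Mkrn1, the tested members of each class with the widest range of stage means and the narrowest bright ones, and the members with the largest called changes were named; array values of Usp1 and Fbxo9 were added after values were seen. Symbols are those of the platform annotation, and 25 of the 110 probe sets carry a name mark (such as _f, _g, _r or _s) under which other transcripts may hybridise. Alternatives were quantile normalization, median centring, spike scaling, other offsets and filters, no trend, array weights, the replicate block, fits of the 2 stages alone, plain probe sets, 1 probe set per gene and each array left out.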

Additional observations from a re-analysis of the deposited data

Results flagged for a closer look

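Of 82 groups of 4 arrays among the members given by array, 3 had an array whose gap to the nearest other, divided by the range, passed Dixon's 95% critical value, and chance alone gives about 1 in 20. Ube2v2 (160247_at) read 350.6 on 8-cell array 4, where the other 8-cell arrays lay between 394.2 and 397.1. Fbxo38 (103893_at) read 471.7 on oocyte array 2, with the others between 572.8 and 587.3. Usp9x (103713_at) read 146.1 on 8-cell array 1, with the others between 89.8 and 92.0.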

How the results depend on the processing

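Of 142 recomputed counts of members, 136 stayed within 1.5 times, and the 6 beyond came with spike scaling, apart from leaving out arrays. Spike scaling gave 1 higher and 41 lower members in 1-cell minus oocyte, 10 lower in 2-cell minus 1-cell, 4 higher in 8-cell minus 2-cell, and 53 higher and 3 lower in blastocyst minus 8-cell. Of all tested probe sets it called 0.384% higher and 56.5% lower, 11.1% lower, 10.6% higher, and 57% higher and 2.48% lower in the same order. The arrays as a whole thus shift there. With each array left out, lower members numbered 11 to 17 in 1-cell minus oocyte, 20 to 27, 38 to 41 and 18 to 22 in the next comparisons and 47 to 49 in blastocyst minus oocyte, and higher ones 23 to 26, 20 to 23, 13 to 14, 15 to 21 and 17 to 18. The 11 came without 1-cell array 1. Of 3210 values of named members under the other settings, 1 reversed: Mkrn1 101069_g_at in 8-cell minus 2-cell was -0.20 with quantile normalization. A call lost without a change of sign is not among these. Not all calls held in every fit with an array left out and every setting that kept all tested probe sets, spike scaling apart. Higher and lower calls that held were 20 of 26 and 10 of 18 in 1-cell minus oocyte, 17 of 23 and 20 of 28 in 2-cell minus 1-cell, and 11 of 13 and 37 of 42 in 8-cell minus 2-cell. They were 14 of 18 and 16 of 23 in blastocyst minus 8-cell, and 17 of 18 and 43 of 52 in blastocyst minus oocyte.

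Spike scaling reversed 39 values, as its construction shifts all probe sets of an array together. In 1-cell minus oocyte these were -0.34 for Ube2d2a (162499_f_at), -0.09 for Ube2d3 and -0.09 for Ube2h (100528_at), -0.33 for Ube2z (98635_at), -0.30 and -1.07 for Fbxo3, -0.91 for Fbxw4 (102478_f_at), -0.04 for Trim61, -0.26 for Trim37, -0.02 and -0.26 for Usp2, -0.28 for Usp9x, -0.41 for Usp19, -0.22 for Usp15, -0.37 for Usp7, -0.92 for Usp48, -0.87 for Usp10 and -0.32 for Usp33. In 8-cell minus 2-cell Trim27 was -0.06. In blastocyst minus 8-cell they were 0.26 and 0.14 for Mkrn1, 0.37 and 1.01 for Ube2d2a, 0.79 for Ube2v2, 0.46 for Ube2o, 0.95 for Ube2g1, 0.44 for Ube2e1, 0.76 for Ube2z, 0.72 for Fbxo6, 0.30 for Fbxo45, 0.07 for Fbxl5, 0.51 for Trim13, 0.35 for Trim37, 0.63 for Trim28, 0.85 for Trim27, 1.05 for Usp34, 1.01 for Usp7, 0.95 for Usp39 and 1.06 for Usp4.

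The replicate numbers of the titles showed no clear pairing of the samples. Same-numbered arrays correlated between -0.03 and 0.125 in their deviations from the stage means, above 0.1 in 2 of 15 pairs. Differently numbered arrays correlated between -0.274 and 0.357. With 3 or 4 arrays a stage, such correlations cannot exclude pairing. With the replicate block, higher and lower members numbered 26 and 17, 22 and 28, 13 and 40, 17 and 21, and 18 and 48 in the 5 comparisons, and 81 members differed between stages.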
